A study of Homo sapiens with 2 samples.

Results

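NORAD, CYTOR, PVT1 and KCNQ1OT1 are long non-coding RNAs, transcripts that are not translated, and each has been studied in human cancers. They were chosen by name: all transcript rows listed under these 4 names with a number as value were taken, which gave 4 of 9253 names and 53 of 18663 rows with a value. RNA was measured in 95D, a human lung cancer cell line of wild-type genotype per the labels. After 24 h in complete medium, 1 culture was kept for 48 h without glucose and 1 for 48 h without glutamine, each in medium with dialyzed serum; the libraries are called glucose-free and glutamine-free below. The labels give 1 library per condition and no library from cells in full medium, so no value below has a replicate check, no test between conditions was made, and every interval covers counting error only. The title and design text of the study name an immunoprecipitation of ALKBH5, an eraser of the m6A mark on RNA, set against input RNA, while the labels of both libraries describe rRNA-depleted total RNA. Whether either library is such a pull-down is not given in the sources used here, and binding to ALKBH5 was not analysed.

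The 4 RNAs act in different ways. NORAD is an abundant, conserved RNA that comes from a gene without introns and stays largely in the cytoplasm, where it is known for a part in keeping chromosomes stable. CYTOR, also known as LINC00152, is a spliced RNA raised in many tumours. PVT1 is the many-exon neighbour of the MYC oncogene and is often co-amplified with it. KCNQ1OT1 is a long, unspliced nuclear RNA read antisense to KCNQ1 from the paternal allele, and it silences neighbouring imprinted genes in cis. In RefSeq, on assembly GRCh38.p14, which is the hg38 build named in the submitters' processing notes, NORAD lies at chr20:36045618-36050960, CYTOR at chr2:87455427-87521518 and KCNQ1OT1 at chr11:2608328-2699994. All 4 have the RefSeq class lncRNA.

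CYTOR has a near-identical copy on the same chromosome, MIR4435-2HG, at chr2:111195866-111495161. The RefSeq sequences around both annotated start sites are shown because they let the duplication be seen. Each is 300 bases long and printed 5′ to 3′ on the strand of its gene. The capitals mark the stretch where the 2 windows overlap, which both copies share. The first is at chr2:87455177-87455476 on the plus strand and the second at chr2:111495112-111495411 on the minus strand.
CYTOR: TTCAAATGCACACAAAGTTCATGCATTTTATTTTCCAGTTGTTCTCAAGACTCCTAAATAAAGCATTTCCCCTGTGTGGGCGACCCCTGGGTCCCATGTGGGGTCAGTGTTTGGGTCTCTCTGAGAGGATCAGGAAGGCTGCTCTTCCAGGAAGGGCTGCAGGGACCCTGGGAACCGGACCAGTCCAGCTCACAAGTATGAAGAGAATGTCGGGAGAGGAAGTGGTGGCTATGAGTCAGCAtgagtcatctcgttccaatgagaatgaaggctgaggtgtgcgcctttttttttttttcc
MIR4435-2HG: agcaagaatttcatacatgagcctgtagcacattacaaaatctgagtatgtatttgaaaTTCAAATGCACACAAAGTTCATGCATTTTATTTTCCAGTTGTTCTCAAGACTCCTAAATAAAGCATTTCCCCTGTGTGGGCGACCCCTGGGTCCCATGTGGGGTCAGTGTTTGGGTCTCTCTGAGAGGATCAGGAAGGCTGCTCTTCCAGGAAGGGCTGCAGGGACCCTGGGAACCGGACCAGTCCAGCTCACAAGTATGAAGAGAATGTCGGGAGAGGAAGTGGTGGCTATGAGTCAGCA
The shared stretch is 241 bases long, with 241 identical bases and 0 differences. It is the whole overlap of the 2 windows, aligned without gaps. The 59 bases of each window outside it had no counterpart to be compared with, so where the likeness ends is not known here. In the CYTOR window it ends at base 241, because the other window ends there. That is 10 bases before the annotated start site at base 251, and whether the likeness goes on into the annotated CYTOR gene was not compared. In the MIR4435-2HG window it runs from base 60 to base 300 and includes the annotated start site, also at base 251. The transcribed parts of the copies were not compared here, and how the authors assigned reads that fit both copies is not stated. Of the 4 names, NORAD and CYTOR were in the RefSeq promoter table.

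The libraries differed greatly in how much of the table was above 0. No unit is given for the deposited values. Their equal steps are those of reads multiplied by 1 factor per library, with a small offset and no division by transcript length. On this reading of the values, reads were recovered from the step between low values. The recovered reads came to 42827 in the glucose-free and 1442572 in the glutamine-free library over the listed rows. Of the 18663 rows with a value, 474 were above 0 in the glucose-free library (2.54%) and 18564 in the glutamine-free library. A row above 0 held a median of 70 reads in the former and 17 in the latter. Of the markers fixed for the labelled cell type, 4 of 6 epithelial names carried a value and KRT8 alone of them was above 0 in the glucose-free library, at 200 there and 143 in the glutamine-free library. NAPSA was the 1 of 6 lung lineage names with a value, at 161 and 18.9, and NKX2-1, SFTPB and SFTPC had none. Of 4 mesenchymal names, 3 carried a value: FN1 at 344 and 963, and VIM at 75.9 and ZEB1 at 18.9 in the glutamine-free library with a listed 0 in the other. No leukocyte, endothelial or fibroblast marker carried a value in either library. NKX2-1, LYZ, PECAM1 and DCN are not among the listed names at all, so a marker without a value is not a measured absence.

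NORAD was the member with the highest value in the glucose-free library, and the only 1 of the 4 whose single listed row was above 0 in both libraries. Its value was 455 in the glucose-free and 797 in the glutamine-free library, or 360 reads (95% Poisson interval 324 to 399) and 1007 reads (946 to 1071). The difference on the log2(value + 1) scale, glutamine-free minus glucose-free, was 0.81 as deposited. As a share of reads over the rows with a value, NORAD took 0.841% (95% Wilson interval 0.758 to 0.932%) in the glucose-free and 0.0698% (0.0656 to 0.0743%) in the glutamine-free library. The largest single row held 5566 of 42827 reads in the former and 559465 of 1442572 in the latter. Without the most abundant name of each library, NORAD took 0.966% and 0.114%. The deposited value was thus higher in the glutamine-free library and the share of reads lower. With each library rescaled to a total of 1000000 the log2 difference was -3.59, so NORAD has no direction that holds under both scalings.

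CYTOR was above 0 in both libraries, and how it compared depended on which of its rows were counted. Summed over 18 rows with a value, it stood at 173 in the glucose-free library, from 137 reads (115 to 162), and at 448 in the glutamine-free library, from 567 reads (521 to 616). The log2 difference was 1.37 as deposited and -3.02 after rescaling. All 137 reads of the glucose-free library lay in a single row. That row was also the largest in the glutamine-free library, where it held 202 reads and 35.6% of the summed value. Its own deposited values were 173 and 160, a log2 difference of -0.12, so the higher sum in the glutamine-free library came from the other rows, all listed at 0 in the glucose-free library. These others ranged from 1.56 to 60.1 in the glutamine-free library, and 5 of the 18 rows held 5 reads or fewer there.

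PVT1, by contrast, had the highest value of the 4 in the glutamine-free library and next to none in the glucose-free library. It stood at 5.08 in the glucose-free library, from 4 reads (1.09 to 10.2), and at 1370 in the glutamine-free library, from 1732 reads (1651 to 1816). The log2 difference was 7.82 as deposited and 3.66 after rescaling, higher in the glutamine-free library under both. Its share of reads was 0.00934% (0.00363 to 0.0240%) in the glucose-free and 0.120% (0.115 to 0.126%) in the glutamine-free library. In RefSeq, PVT1 has 51 transcripts, against 5 for CYTOR and 1 each for NORAD and KCNQ1OT1. The files listed 190 PVT1 rows, of which 157 carried no value (82.6%, against 79.7% of all rows), and 33 carried 1. In the glutamine-free library those 33 ran from 1.56 through a median of 28.5 to 216. The largest held 15.8% of the sum and the top 3 together 38.9%, and 5 rows were needed to reach 50% of it, against 3 rows for CYTOR. The row with the 4 reads of the glucose-free library was the next largest in the glutamine-free library, at 187. PVT1 was thus spread over many rows in the glutamine-free library. Its 4 reads in the glucose-free library could have filled at most 4 rows, so the spread over rows cannot be compared between the libraries.

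KCNQ1OT1 was listed at 0 in the glucose-free library and stood at 967 in the glutamine-free library. The latter value came from 1 row with 1223 reads (1155 to 1294), a share of 0.0848% (0.0802 to 0.0897%). No fold is given against the listed 0, because that library listed most names at 0. Since KCNQ1OT1 runs antisense inside KCNQ1 and no source used here states that counting kept the strand, reads of unspliced KCNQ1 RNA cannot be told apart from it. Among the other 146 names whose value in the glutamine-free library lay within 2-fold of that of KCNQ1OT1, 54 were above 0 in the glucose-free library (37.0%). A listed 0 was therefore the more common entry at its level. The same count was 64 of 207 names (30.9%) around NORAD, 96 of 475 (20.2%) around CYTOR and 34 of 88 (38.6%) around PVT1. Within these bands, 2 of the 207 names around NORAD stood higher than it in the glucose-free library, 24 of 475 around CYTOR and 32 of 88 around PVT1. Each count depends on the member's own value there, and the members were chosen with these values known.

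**Figure D1:**
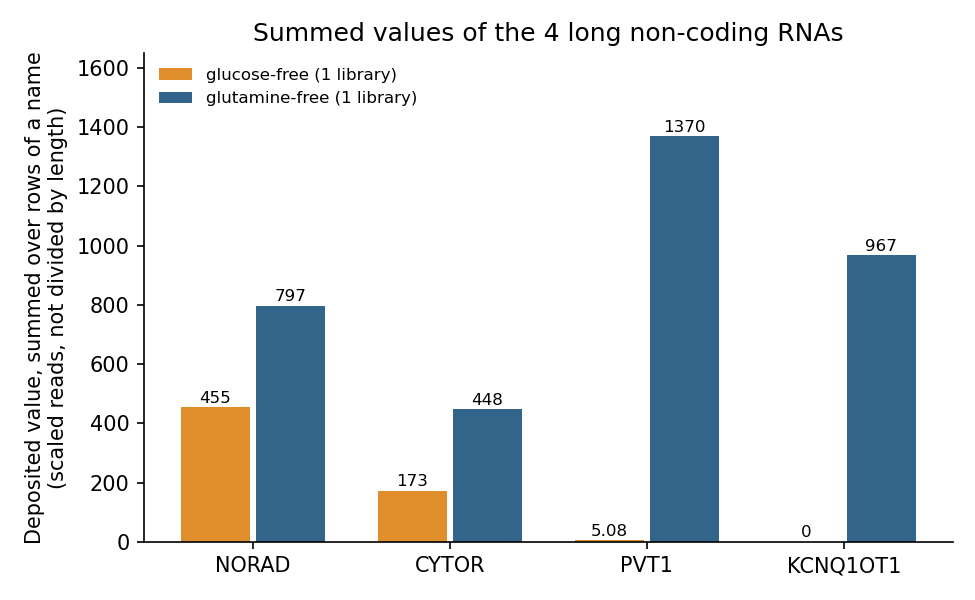
Bars give the deposited value summed over the transcript rows of each name (scaled reads, not divided by length) in the single glucose-free library (orange) and the single glutamine-free library (blue), with no error bars because each condition has 1 library. NORAD leads in the glucose-free library at 455, while PVT1 at 1370 leads in the glutamine-free library and KCNQ1OT1 is listed at 0 in the other.

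**Figure D2:**
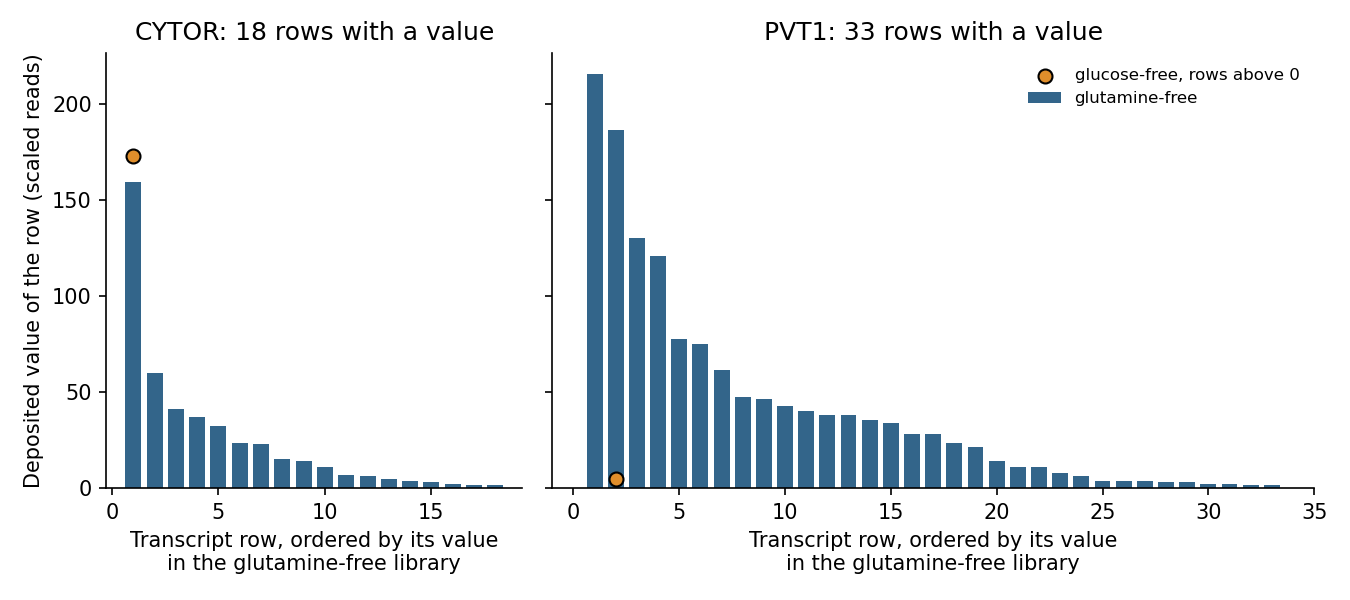
Each bar is a transcript row of CYTOR (18 rows) or PVT1 (33 rows), ordered along the horizontal axis by its deposited value in the glutamine-free library, and orange points mark the values of rows above 0 in the glucose-free library. A single row per name carries such a point, at 173 for CYTOR on its largest row and at 5.08 for PVT1 on its next largest.

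The order of the 4 by summed value was NORAD, CYTOR, PVT1 and KCNQ1OT1 in the glucose-free library, and PVT1, KCNQ1OT1, NORAD and CYTOR in the glutamine-free library. The counting intervals of neighbours in each order did not overlap, except for PVT1 at 4 reads and the listed 0 of KCNQ1OT1. The 4 names together held 501 reads in the glucose-free library, or 1.17% (1.07 to 1.28%), and 4529 reads in the glutamine-free library, or 0.314% (0.305 to 0.323%). NORAD supplied 71.9% of the former and 22.2% of the latter, and PVT1 0.798% and 38.2%. The makeup of the 4 thus differed between the libraries.

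These are read totals, and a longer RNA gives more reads at the same level. RefSeq gives NORAD 5343 bases and KCNQ1OT1 91667 bases, both as 1 unspliced transcript, so this pair can be put on a per-length scale if the listed rows are these transcripts. In the glutamine-free library NORAD had 188 reads per kilobase and KCNQ1OT1 13.3. In the glucose-free library NORAD had 67.4 reads per kilobase. Per length, NORAD was thus above KCNQ1OT1 in both libraries, although its reads were fewer in the glutamine-free library. CYTOR and PVT1 are spliced and their rows carry no transcript identifiers, so no per-length level is given for them.

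Ratios of reads within a library do not depend on the scaling between libraries. The ratio of NORAD to CYTOR was 2.63 (95% exact counting interval 2.15 to 3.22) in the glucose-free and 1.78 (1.60 to 1.97) in the glutamine-free library, and these intervals do not overlap. With only the CYTOR row above 0 in both libraries counted, a setting chosen after the values were seen, the ratio was 2.63 and 4.99 (4.28 to 5.83). The direction of this difference therefore turned with the choice of rows. The ratio of NORAD to PVT1 was 90.0 (34.8 to 332) in the glucose-free and 0.581 (0.537 to 0.629) in the glutamine-free library. With only the shared PVT1 row it was 4.27 (3.70 to 4.94) in the latter, so the ratio was higher in the glucose-free library with either choice of rows. The ratio of CYTOR to PVT1 was 34.2 (13.1 to 127) and 0.327 (0.297 to 0.360), or 0.856 (0.706 to 1.04) in the glutamine-free library with the shared rows. MALAT1, an abundant RNA of nuclear speckles, gave a ratio to NORAD of 2.88 (2.55 to 3.25) and 86.1 (80.9 to 91.7). NEAT1, the scaffold of nuclear paraspeckles, gave 1.11 (0.961 to 1.28) and 31.9 (30.0 to 34.0). NORAD reads were thus far fewer against MALAT1 and NEAT1 in the glutamine-free library, with all rows counted. Other long non-coding RNAs did not all differ so much. OIP5-AS1 held 291 and 850 reads and SNHG16 190 and 1092, beside 360 and 1007 for NORAD. These 2 were picked as the names nearest to NORAD on these same values, so their likeness to it was set by that choice. Of 23 well-studied long non-coding RNAs with a value besides the members, 8 were above 0 in the glucose-free library and the rest were listed at 0. A link to the place of NORAD, MALAT1 and NEAT1 in the cell was not tested.

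**Figure D3:**
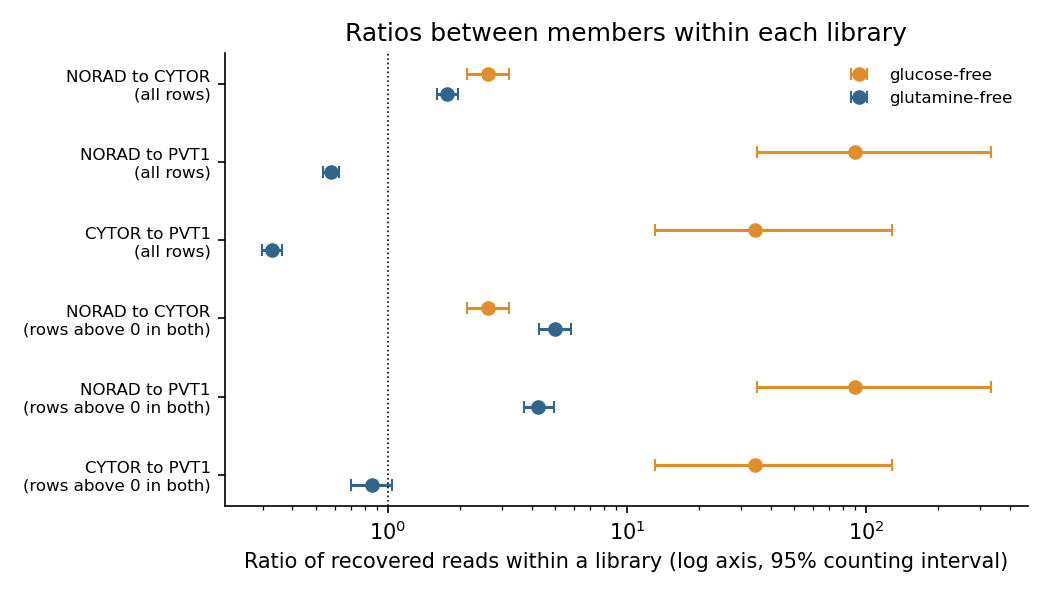
Points give the ratio of recovered reads of a pair of names within a library, on a log axis, with 95% exact counting intervals, for the glucose-free (orange) and glutamine-free (blue) library, over all rows or over the rows above 0 in both libraries. NORAD to PVT1 is 90.0 in the glucose-free and 0.581 in the glutamine-free library over all rows, while NORAD to CYTOR is lower in the glutamine-free library over all rows and higher over the shared rows.

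Against all names, the members' counts need the background of each library. On the deposited values 3 of the 4, CYTOR, PVT1 and KCNQ1OT1, had a value at least 2 times as high in the glutamine-free library, as did 97.4% of all 9253 names. In the opposite direction, with the glucose-free library at least 2-fold higher, there were 0 of the 4 and 1.42% of all names. KCNQ1OT1 counts here through the pseudocount against its listed 0. A share this near the background says nothing particular about the 4. Above 0 in the glucose-free library were 3 of the 4, NORAD, CYTOR and PVT1, against 4.25% of all names and 3.46% of the 1099 names of RefSeq class lncRNA. Most of these names have lower values than the members. Within 2-fold of a member's value in the glutamine-free library, the share above 0 ran from 20.2% around CYTOR to 38.6% around PVT1. The members were also chosen with these values known. Among the 351 names above 0 in both libraries the median log2 difference was 0.61, and 42.2% differed by 2-fold or more towards the glutamine-free and 25.4% towards the glucose-free library. NORAD at 0.81 lay near that median, CYTOR at 1.37 above it and PVT1 at 7.82 far above it. Row by row, 3 of the 53 member rows with a value were above 0 in both libraries, against 375 of all 18663 rows with a value (2.01%). The median log2 difference of those 375 was -0.37. Of 276 names with several rows that were above 0 in both libraries, 230 (83.3%) had a single row above 0 in the glucose-free library, as CYTOR and PVT1 did. The largest row was the same in both libraries for 107 of the 276 (38.8%), CYTOR among them and PVT1 not.

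**Figure D4:**
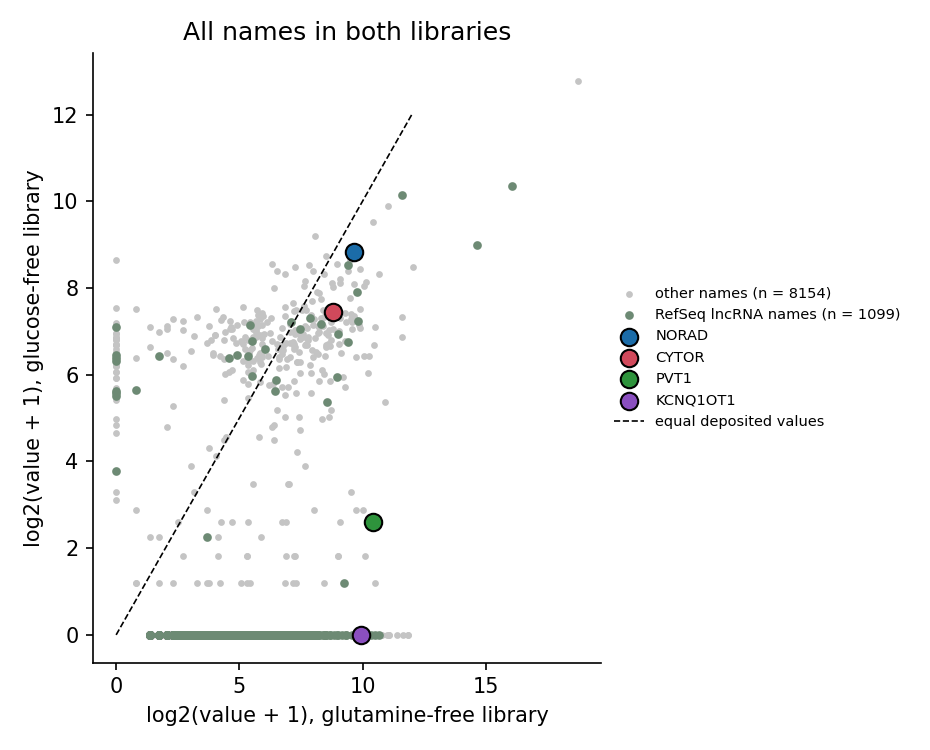
Each point is a name, by log2(value + 1) in the glutamine-free library (horizontal) and the glucose-free library (vertical), with names of RefSeq class lncRNA in green, other names in grey, the 4 members in colour and a dashed line of equal deposited values. NORAD and CYTOR lie just right of the dashed line among the 351 names above 0 in both libraries, and KCNQ1OT1 lies at 0 on the vertical axis with most other names.

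The names of RefSeq class lncRNA most like each member were found by the distance over log2(value + 1) in the 2 libraries, among 1098 candidates, which is a likeness over 2 points only. OIP5-AS1, a cytoplasmic RNA known to bind the protein HuR, was nearest to NORAD, at 368 and 672 (distance 0.39), followed by SNHG16 at 240 and 864 and MIR29B2CHG at 150 and 892. SNHG29 was nearest to CYTOR, at 121 and 514 (distance 0.55), followed by TMEM147-AS1 at 143 and 318 and GAS5 at 106 and 678. MIR4435-2HG was nearest to PVT1, at 1.29 and 616, though at a distance of 1.82, and then LINC-PINT and SLC9A3-AS1, listed at 0 in the glucose-free library and at 1309 and 1459 in the other. SNHG3 at 933 was nearest to KCNQ1OT1 (distance 0.05), with GARS1-DT at 768 and LINC-PINT next, all listed at 0 in the glucose-free library.

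MIR4435-2HG, the copy of CYTOR, differed from CYTOR in the glucose-free library and less so in the other. It had 1 read in the glucose-free library, against 137 for CYTOR, and 779 reads over 28 rows in the glutamine-free library, against 567. The ratio of CYTOR to MIR4435-2HG was 137 (24.2 to 5450) and 0.728 (0.652 to 0.812). Because these genes are known as near-identical copies, the split of reads between their names is uncertain in both libraries, and its part in these values was not tested.

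Partners and neighbours of the members were looked up in the same tables, in which 4.25% of all names with a value were above 0 in the glucose-free library and the median value in the glutamine-free library was 20.5. A value under a protein-coding name is that of the rows listed there and says nothing here on its messenger RNA. The list sizes below include names that are not listed at all, MYC and KCNQ1 among them. Among proteins reported to bind NORAD, TOP1, a topoisomerase, stood at 218 in the glutamine-free library, PRPF19 at 54.5 and RBMX at 1.56, and each was listed at 0 in the glucose-free library. Of 14 genes of mitosis and DNA repair, 5 carried a value, led by PARP1 at 301 and SMC3, a cohesin subunit, at 138, with 0 of the 5 above 0 in the glucose-free library. The median value of these 5 in the glutamine-free library was 13.4. Of 11 names of the imprinted domain of KCNQ1OT1, SLC22A18 at 79.8, NAP1L4 at 21.3 and CD81 at 139.9 carried a value in the glutamine-free library, again listed at 0 in the other. Of 11 names of the MYC network, 6 carried a value, and NPM1, a nucleolar chaperone, was the 1 above 0 in the glucose-free library, at 397 there and 720 in the glutamine-free library. NCL at 413 and LDHA at 194 followed in the latter. Among 32 other well-studied long non-coding RNAs, 23 carried a value and 8 were above 0 in the glucose-free library, with a median of 174 in the glutamine-free library. Over all 1099 names of RefSeq class lncRNA, 3.46% were above 0 in the glucose-free library and the median in the glutamine-free library was 15.8. CYTOR's list of copy and neighbours added ANAPC1 at 29.2, listed at 0 in the glucose-free library.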

How the data were processed

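The deposited tables held transcript rows named by gene, without transcript identifiers, and 1 value column per library; no unit is given per the file headers. The description of the glutamine-free sample names the same column of the series-wide table as that of the glucose-free sample, so that table was not used and each library's condition rests on its own file and title. Per the submitters' processing notes HISAT2 2.0.5, StringTie and hg38 were used, without roles; for the counter, annotation and normalization, nothing is stated in these sources. Rows with a mark in place of a number were left out, and any value under 1e-09 was taken as 0. The deposited values climbed in equal steps of 1.26 and 0.791 (offsets 0.022 and -0.018); subtracting the offset and dividing gave whole reads within 0.1 for 100% of values up to 1000 reads. Every row with a value had at least 2 reads over both libraries. A row without a value was not analysed here.

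Values were summed per name. Log2 differences used a pseudocount of 1, which understates low names, and the 2-fold threshold is a description. Sequences, gene classes and coordinates are from RefSeq GRCh38.p14. Named genes were the 4 members, the 3 nearest RefSeq lncRNA names of each, and up to 4 names per context list by value; a name within this rule is not reported here. The members and lists were chosen with earlier results of these data known. Calculations used Python 3.11.15, pandas 2.3.3 and scipy 1.17.1. Read recovery and the 2-fold calls were tested on simulated libraries of like read totals, the calls on well-covered names only. The 2 libraries here differ far more in reads, a setting that the simulation did not cover. Alternatives covered scaling, pseudocount, rows counted, thresholds, minimum and denominator.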

Additional observations from a re-analysis of the deposited data

How the results depend on the processing

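With 1 library per condition, no replicate could be left out. No paired analysis was possible because each condition has 1 library. The scaling between libraries and the rows counted decided the differences of NORAD and CYTOR. With each library rescaled to 1000000, which moves log2 differences by -4.40 before the pseudocount and by less for a low or listed-0 value, NORAD was at -3.59, CYTOR at -3.02 and PVT1 at 3.66, and 2 of the 4 names (and 347 of all names) differed by 2-fold or more towards the glucose-free library, in place of 0 (and 131). Centred on the median of names above 0 in both libraries, NORAD was at 0.20 and CYTOR at 0.76. With the largest row of each library CYTOR was at -0.12 and PVT1 at 5.16. With the rows above 0 in both libraries, chosen after the data were seen, CYTOR was at -0.12 and PVT1 at 4.95, and the ratio of NORAD to CYTOR in the glutamine-free library was 4.99. In this setting 1 of the 4 names, of which 3 have such a row, was 2-fold higher in the glutamine-free library. Over all names 113 of the 375 such rows were, so the member count says nothing particular about the 4. A pseudocount of 0.1 put KCNQ1OT1 at 13.24 against 9.92 with 1, values set by the pseudocount because it was listed at 0. At 4-fold, 85 names were higher in the glucose-free library. Without the most abundant name in the denominator, NORAD was 0.966% of reads in the glucose-free library, and in the glutamine-free library NORAD was 0.114%, CYTOR 0.0642%, PVT1 0.196% and KCNQ1OT1 0.138%. In the other 26 of 46 recalculations the value stayed within its counting interval or, for a count, within 1.5 times. That bound is wide for a count out of 4. The count of members 2-fold higher in the glutamine-free library, 3 as deposited, was 2 after rescaling and passed as unmoved. At 4-fold it was 2 and at 1.5-fold 4. Some of the 26 could not have moved. They include the counts of all names without a minimum, the listed 0 of KCNQ1OT1 under another denominator and the NORAD to CYTOR ratio of the glucose-free library over the shared rows. PVT1 rested on 4 reads in the glucose-free library, which limits its precision there.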
